A study of Mus musculus with 23 samples.

Results

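The enhancer lists of the retrosplenial cortex (RSC) and the lateral entorhinal cortex (LEC) were compared for 2 histone marks, H3K27ac and H3K4me2, on the 19 autosomes. The members were chosen by the positions of the listed regions: each enhancer region was sorted by overlap with the lists of the other subregion. A region was called RSC-only when it was an RSC enhancer region that shared no base with any region in the LEC full list of that mark, and LEC-only by the reverse rule. Regions of both enhancer lists that shared at least 1 bp were called common. The rest overlapped only a region that the other subregion had in its full list but not in its enhancer list, called an excluded region here. The comparison covered 102698 enhancer regions, of 188317 autosomal enhancer regions in the lists of all 4 subregions of the series, which also hold the anterior cingulate cortex (ACC) and the medial entorhinal cortex (MEC).

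All samples were cortical tissue of C57BL6J mice aged 56 postnatal days, with no treatment or genetic change in the labels. Brains were cut at 500 µm, and each subregion was dissected on both sides by its architecture. The 8 libraries behind the RSC and LEC lists were 2 per subregion and mark, but each deposited list is 1 set of regions per subregion and mark, with no value per library. The values below therefore have no spread between replicates and no test, and the brackets after percentages are Wilson 95% intervals of counting error only. Neighbouring regions are not independent of each other. The tissue was bulk, so a mark carried by fewer cells and a weaker mark in each cell cannot be told apart, and no read counts were analysed, so depth is unknown. Marker genes were not used to check the tissue labels, because the gene table at hand is for another genome build than the mm9 positions of the lists.

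An enhancer is a stretch of DNA, often far from the gene it acts on, that raises transcription when transcription factors bind it. Nucleosomes next to such sites carry H3K4me2, dimethylated lysine 4 of histone H3, both when the site is active and when it is only prepared for use. H3K27ac, acetylated lysine 27 of the same histone, is added at sites in active use. RSC is a midline cortical area known for its part in navigation and spatial memory, and LEC is the division of the entorhinal cortex known for carrying information on objects and context to the hippocampus.

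The lists of both subregions held similar numbers of regions. RSC had 23665 autosomal H3K27ac enhancer regions covering 67.5 Mb, and LEC had 22461 covering 66.3 Mb. For H3K4me2 RSC had 28050 regions (53.0 Mb) and LEC 28522 (56.6 Mb). The full lists, which decided what counted as absent, held 40399 regions in RSC and 41019 in LEC for H3K27ac, and 45335 and 46963 for H3K4me2. They covered 141.1 Mb in RSC and 146.9 Mb in LEC for H3K27ac, and 124.1 and 136.9 Mb for H3K4me2. A list that covers more bases has more chance to overlap a region, and the part of this in the counts was not tested.

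A large part of the enhancer regions of each subregion was missing from the other in either mark. For H3K27ac, 10137 RSC regions were RSC-only, 42.8% (42.2 to 43.5) of the list, and 9115 LEC regions were LEC-only, 40.6% (39.9 to 41.2). For H3K4me2 the direction turned: 10279 regions or 36.6% (36.1 to 37.2) were RSC-only and 11237 or 39.4% (38.8 to 40.0) were LEC-only. RSC thus had the larger set of its own in H3K27ac and LEC in H3K4me2. The enhancer list was the longer one in RSC for H3K27ac and in LEC for H3K4me2, while the full lists of both marks were longer in LEC. With lists cut to equal numbers of regions the counts were 9393 against 9115 for H3K27ac and 10621 against 10886 for H3K4me2. These counts come from the sorting rule and describe the lists.

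Common regions made up 52.5% (51.9 to 53.2) of the RSC and 55.5% (54.8 to 56.1) of the LEC H3K27ac list, and 60.4% (59.8 to 61.0) and 59.1% (58.5 to 59.7) of the H3K4me2 lists. A small remainder, from 1.49% of the LEC H3K4me2 list to 4.64% of the RSC H3K27ac list, lay in an excluded region of the other subregion.

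**Figure D1:**
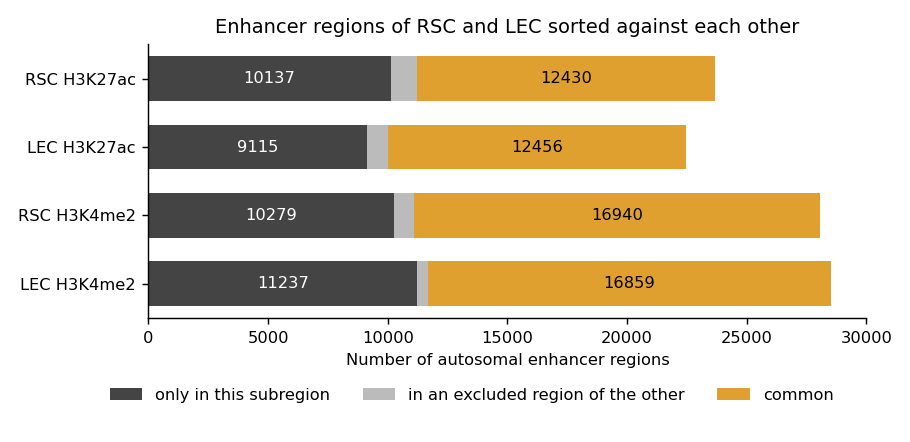
Number of autosomal enhancer regions (horizontal axis) of each subregion and mark that were absent from the other subregion's full list (dark), in one of its excluded regions (grey) or common (orange). Common regions are the largest set in each of the 4 lists, with 12430, 12456, 16940 and 16859 regions from top to bottom.

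The edge of the rule was thinly populated. Only 11 RSC-only and 2 LEC-only H3K27ac regions lay within 100 bp of a region of the other list, and 12 RSC and 9 LEC enhancer regions overlapped one by 100 bp or less. Within 1000 bp lay 1.68% of the RSC-only and 1.90% of the LEC-only H3K27ac regions. The median gap to the nearest region of the other full list was 13.2 kb for RSC-only and 12.3 kb for LEC-only regions in H3K27ac, and 10.9 and 9.90 kb in H3K4me2. Regions of these sets that adjoined a region of the other list were thus few. RSC-only H3K27ac regions were the most remote from the other list: 1029 of them, 10.2%, lay over 100 kb from any LEC region, against 577 LEC-only regions, 6.33%, from any RSC region.

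Regions held by a single subregion were narrower than common ones. The median width was 1650 bp for RSC-only and 1725 bp for LEC-only H3K27ac regions, against 2500 and 2675 bp for the common regions of RSC and LEC. In H3K4me2 it was 1250 and 1300 bp against 1675 and 1750 bp. A wide region has more chance to meet another, so part of this contrast is built into the rule. The RSC-only H3K27ac regions therefore held 31.0% of the bases of their list though they were 42.8% of its regions, and the LEC-only ones 28.7% of the bases.

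The share held by a single subregion fell steadily with width in both subregions. Among H3K27ac regions under 1000 bp, 69.3% (67.5 to 71.1) of those in RSC and 73.2% (71.1 to 75.2) of those in LEC were absent from the other list. At 4000 bp or more it was 19.2% (18.1 to 20.4) and 16.2% (15.1 to 17.3). RSC was thus lower than LEC among the narrowest H3K27ac regions and higher among the widest. In H3K4me2 LEC was higher at each of the 5 widths, from 70.9% (69.2 to 72.4) against 64.0% (62.4 to 65.5) under 1000 bp to 11.0% (9.71 to 12.5) against 9.30% (7.98 to 10.8) at 4000 bp or more, where the intervals overlapped.

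**Figure D2:**
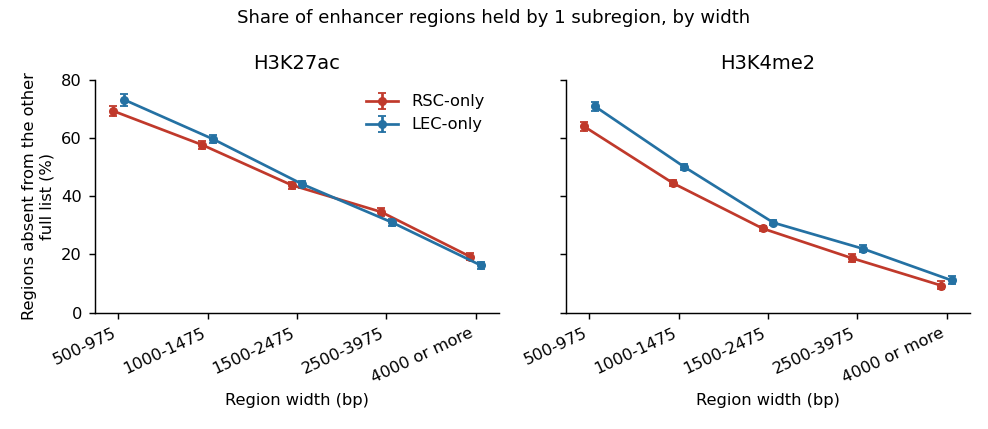
Percentage of RSC (red) and LEC (blue) enhancer regions absent from the other subregion's full list (vertical axis) in 5 classes of region width (horizontal axis, bp), with Wilson 95% intervals as bars. The share fell from 69.3% and 73.2% in the narrowest H3K27ac class to 19.2% and 16.2% in the widest.

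Common enhancers were mostly pairs of 1 region in each subregion. The common H3K27ac regions formed 11996 merged elements, of which 11229 or 93.6% joined 1 RSC region to 1 LEC region. For H3K4me2 it was 16234 of 16666, or 97.4%. Within a pair the median share of bases in common, of the bases in either region, was 72.3% for H3K27ac and 80.6% for H3K4me2, so the borders of H3K4me2 regions coincided more closely. The LEC region was the wider one in 6213 H3K27ac pairs and the RSC region in 4864, with 152 of equal width. In H3K4me2 LEC was wider in 9204 pairs and RSC in 6594. Widths differed at least 2-fold in 17.8% of the H3K27ac and 9.07% of the H3K4me2 pairs. Depth and the amount of mark cannot be told apart in these widths.

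The widest common H3K27ac element lay at chr9:122492076-122545325 and was 1 unbroken region in LEC, of 53.2 kb. RSC had 7 separate enhancer regions there covering 40.2 kb, MEC 3 covering 5.58 kb, and ACC 1 covering 21.2 kb. The next, chr2:166942826-166995175, was unbroken in RSC over 52.4 kb, and LEC had 3 regions covering 41.6 kb. ACC had no H3K27ac region at this site but 5 H3K4me2 enhancer regions covering 39.4 kb, more than the 26.8 kb in RSC and the 25.7 kb in LEC.

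Along the chromosomes the sets of both subregions were spread over all autosomes. The RSC-only share of H3K27ac regions ran from 38.8% on chromosome 11 to 46.5% on chromosome 15, and the LEC-only share from 37.4% on chromosome 16 to 43.6% on chromosome 5. For each LEC-only H3K27ac region there were from 0.914 RSC-only regions on chromosome 5 to 1.32 on chromosome 16. In H3K4me2 this ratio ran from 0.799 on chromosome 19 to 1.07 on chromosome 3. Of 2124 windows of 1 Mb that held either set in H3K27ac, 1638 or 77.1% held both. In 81 windows there were 5 or more RSC-only regions and no LEC-only one, and in 32 windows the reverse. H3K4me2 had 22 and 10 such windows. Across the windows the counts of both sets had a Pearson r of 0.160 in H3K27ac (2124 windows) and 0.418 in H3K4me2 (2133 windows), given as a description, since windows share gene density and library depth.

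RSC-only regions lay farther from excluded regions than LEC-only regions did. The median distance to the nearest excluded region of the same subregion and mark was 49.3 kb for RSC-only and 33.5 kb for LEC-only H3K27ac regions, where common regions had 33.3 kb in RSC and 31.5 kb in LEC. In H3K4me2 it was 45.8 kb for RSC-only and 34.1 kb for LEC-only regions, against 35.8 and 34.6 kb for common ones. LEC-only regions thus had medians near those of common regions, and RSC-only regions were more remote: 49.6% of the RSC-only H3K27ac regions were over 50 kb from an excluded region, against 39.1% of the common regions of RSC and 39.3% of the LEC-only ones. RSC had fewer excluded H3K27ac regions than LEC, 16734 against 18558, and the part of this in the distances was not tested. The contrast of RSC-only with common RSC regions used the same excluded regions for both.

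The marks were then read over each other, since each was sorted by its own lists. H3K27ac regions held by a single subregion carried H3K4me2 less often than common ones. RSC-only H3K27ac regions overlapped the RSC full H3K4me2 list in 41.2% (40.2 to 42.1) of cases, where all RSC enhancer regions did so in 56.02% and the common ones in 67.7% (66.9 to 68.5). LEC-only regions overlapped the LEC list in 55.8% (54.8 to 56.8), against 63.03% of all LEC enhancer regions and 68.6% (67.7 to 69.4) of the common ones. Common regions of both subregions were thus alike in H3K4me2, and the RSC-only share differed from the LEC-only share by -14.6 points (-16.02 to -13.2 by Newcombe's method). The RSC-only share was also the lower one in each of the 5 width classes, from 28.0% against 39.9% under 1000 bp to 57.1% against 73.3% at 4000 bp or more. In both sets the share rose with width. Common regions were wider, and the part of width in their contrast with RSC-only and LEC-only regions was not tested.

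Where such a region carried H3K4me2, the mark was far more often listed for its own subregion than for the opposite one alone. Of the RSC-only H3K27ac regions, 23.9% (23.1 to 24.8) had H3K4me2 in RSC and not in LEC, 17.2% (16.5 to 17.99) had it in both, 4.44% (4.06 to 4.86) in LEC alone and 54.4% (53.4 to 55.4) in neither. Over all RSC H3K27ac enhancer regions these shares were 17.3%, 38.7%, 9.98% and 34.004%. Of the LEC-only regions, 27.3% (26.4 to 28.2) had it in LEC and not in RSC, 28.5% (27.6 to 29.4) in both, 6.32% (5.84 to 6.84) in RSC alone and 37.9% (36.9 to 38.9) in neither. Over all LEC enhancer regions they were 19.01%, 44.02%, 10.5% and 26.5%. In both subregions, regions of the own set thus had H3K4me2 in the own subregion alone, or in neither, more often than their whole list, and H3K4me2 in both or in the opposite subregion alone less often. Between the sets, the largest contrasts were in the sites with none, more frequent among RSC-only regions, and in the sites with H3K4me2 in both subregions, more frequent among LEC-only regions.

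Counted by set, 2384 RSC-only H3K27ac regions overlapped an RSC-only H3K4me2 region, 23.5% (22.7 to 24.4), and 434 overlapped a LEC-only one, 4.28% (3.90 to 4.69). The background over all RSC H3K27ac enhancer regions was 18.5% for RSC-only and 10.5% for LEC-only H3K4me2. For LEC-only H3K27ac regions, 2431 or 26.7% (25.8 to 27.6) overlapped a LEC-only H3K4me2 region, with a background of 20.1%, and 574 or 6.30% (5.82 to 6.81) an RSC-only one, with a background of 11.4%. For each RSC-only H3K27ac region over a LEC-only H3K4me2 region there were thus 5.49 over an RSC-only one, and the corresponding ratio for LEC-only H3K27ac regions was 4.24. Over all enhancer regions these ratios were 1.76 in RSC and 1.77 in LEC.

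Read from H3K4me2, the subregions changed places. RSC-only H3K4me2 regions carried H3K27ac of RSC in 49.5% (48.6 to 50.5) of cases and LEC-only regions H3K27ac of LEC in 46.4% (45.5 to 47.3), against 54.8% of all RSC and 56.5% of all LEC H3K4me2 enhancer regions. Of 16940 common H3K4me2 regions on the RSC side, 1604 or 9.47% (9.04 to 9.92) overlapped an RSC-only H3K27ac region and 2429 or 14.3% (13.8 to 14.9) a LEC-only one. Over all RSC H3K4me2 enhancer regions, which include the RSC-only ones, the order was the reverse, with 14.4% and 10.9%. At H3K4me2 sites that both subregions had, an H3K27ac region of LEC alone was therefore more frequent than one of RSC alone, although LEC had fewer H3K27ac regions of its own than RSC.

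The lists of ACC and MEC, which the sorting did not use, were then read over each set. The MEC list held a larger share of the RSC-only than of the LEC-only regions, although MEC and LEC are both entorhinal. In H3K27ac the MEC full list overlapped 1888 RSC-only regions, 18.6% (17.9 to 19.4), and 670 LEC-only regions, 7.35% (6.83 to 7.90), a difference of 11.3 points (10.3 to 12.2). The background over all enhancer regions was 29.4% in RSC and 26.4% in LEC. Common regions were overlapped by MEC in 38.3% (37.4 to 39.2) of cases on the RSC side and 38.7% (37.8 to 39.5) on the LEC side. These were mostly the same sites paired 1 to 1, so their near-equal shares do not show where the contrast lies. Regions in an excluded region of the other subregion went the reverse way, at 29.1% (26.4 to 31.8) in RSC and 49.3% (46.1 to 52.6) in LEC. In H3K4me2 the difference between RSC-only and LEC-only regions was smaller, 3.67 points (2.76 to 4.57). The shares were 14.9% (14.2 to 15.6) and 11.3% (10.7 to 11.9), against 27.2% and 25.5% of all RSC and LEC enhancer regions. The MEC full lists held 22229 autosomal H3K27ac and 28770 H3K4me2 regions, from 2 libraries and 1 library in the labels.

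RSC-only H3K27ac regions led in MEC overlap at each width and on each autosome. Under 1000 bp MEC overlapped 6.54% of RSC-only and 1.04% of LEC-only regions, and at 4000 bp or more 48.6% and 21.1%, a difference of 27.5 points (22.9 to 31.9). Over the 19 autosomes the difference ran from 7.85 points on chromosome 6 to 19.5 on chromosome 15, with a mean of 11.4 ± 2.84 (SD over autosomes, which are not replicates). In H3K4me2 it was above 0 on 18 of 19 autosomes, from -0.126 on chromosome 4 to 9.54 on chromosome 12.

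**Figure D3:**
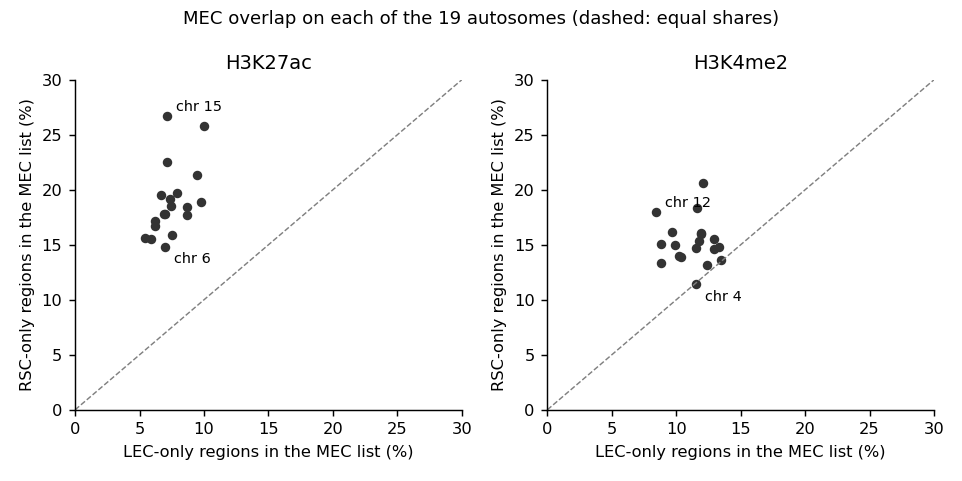
Percentage of RSC-only regions (vertical axis) against percentage of LEC-only regions (horizontal axis) overlapped by the MEC full list of that mark, 1 point per autosome, with equal shares on the dashed line. All 19 H3K27ac points lie above the line, and 18 of 19 H3K4me2 points do.

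RSC-only regions also led in MEC overlap where H3K4me2 was absent. Among H3K27ac regions with H3K4me2 in neither RSC nor LEC, MEC acetylation overlapped 15.8% (14.9 to 16.8) of the RSC-only and 4.03% (3.42 to 4.73) of the LEC-only ones. Among those only in the same subregion in both marks it was 22.6% (20.97 to 24.3) and 4.81% (4.03 to 5.74). Where H3K4me2 was in both subregions it was 22.9% (21.03 to 24.97) and 12.4% (11.2 to 13.8). The shares were closest among regions that overlapped the H3K4me2 set of the opposite subregion, at 19.4% (15.9 to 23.3) and 16.6% (13.7 to 19.8), where the intervals overlapped. Over all H3K27ac enhancer regions MEC acetylation overlapped 29.4% in RSC and 26.4% in LEC. Each share above was lower than that of its whole list. RSC-only regions fell less far below it than LEC-only regions, except among those over the H3K4me2 set of the opposite subregion. There both fell about as far.

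ACC, with 46928 H3K27ac and 53038 H3K4me2 regions in its full autosomal lists, held a similar share of both sets. The ACC full H3K27ac list overlapped 56.3% (55.3 to 57.3) of RSC-only and 57.5% (56.5 to 58.5) of LEC-only regions, a difference of -1.21 points whose interval held 0 (-2.61 to 0.189), with backgrounds of 74.3% and 75.5%. This difference changed sign to 1.17 points among regions of at least 1000 bp, to 1.31 with lists of equal length and to 0.393 with the ACC enhancer list, so no direction is given for it. In H3K4me2 ACC overlapped 58.9% (58.0 to 59.9) and 60.8% (59.9 to 61.7), a difference of -1.88 points (-3.19 to -0.573), where 76.1% of all enhancer regions of either subregion were overlapped. With absence judged from the enhancer lists this difference was -0.874 points (-2.14 to 0.389), and among regions of at least 1000 bp it was -0.767 (-2.20 to 0.663), so its interval held 0 in both cases.

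By width, the H3K27ac values for ACC crossed. Under 1000 bp ACC overlapped 31.5% of RSC-only and 40.1% of LEC-only regions, and at 4000 bp or more 84.2% and 72.0%, a difference of 12.2 points (8.04 to 16.3) in the opposite direction. Wide RSC-only regions were thus more often found in ACC than wide LEC-only regions were. In H3K4me2 the differences at these widths were -2.40 and 2.90 points, with intervals that held 0.

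**Figure D4:**
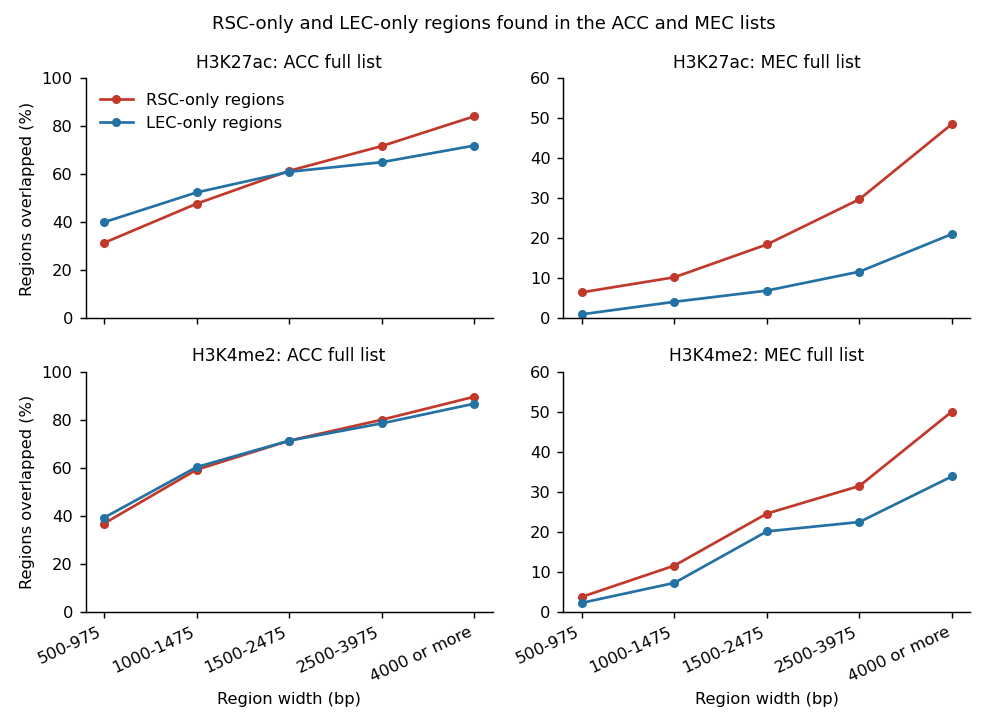
Percentage of RSC-only (red) and LEC-only (blue) regions (vertical axis) overlapped by the ACC (left) or MEC (right) full list of that mark, by region width in bp (horizontal axis). Both sets rise with width, the red line stays above the blue one for MEC, and the lines cross for ACC H3K27ac, from 31.5% against 40.1% in the narrowest class to 84.2% against 72.0% in the widest.

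A large part of each set was found in neither ACC nor MEC. In H3K27ac these were 3844 RSC-only regions, 37.9% (37.0 to 38.9), and 3702 LEC-only regions, 40.6% (39.6 to 41.6), against 21.2% of all RSC and 21.5% of all LEC enhancer regions. In H3K4me2 they were 37.1% (36.1 to 38.0) and 36.2% (35.3 to 37.1), against 19.8% and 20.2%. Such regions were narrow, with median widths of 1250 bp in RSC and 1500 bp in LEC for H3K27ac. The set found in MEC and not in ACC was small but uneven: 585 RSC-only H3K27ac regions, 5.77% (5.33 to 6.24), and 170 LEC-only ones, 1.87% (1.61 to 2.16). The whole lists were uneven in the same direction, at 4.52% in RSC and 2.96% in LEC.

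Among the 2384 regions that were RSC-only in both marks, 368 or 15.4% (14.0 to 16.9) overlapped no ACC or MEC region of either mark. Among the 2431 that were LEC-only in both, it was 531 or 21.8% (20.2 to 23.5). Over all H3K27ac enhancer regions it was 14.5% in RSC and 12.4% in LEC. ACC acetylation overlapped 66.3% (64.4 to 68.2) of the RSC group and 56.4% (54.5 to 58.4) of the LEC group, and ACC H3K4me2 56.8% (54.8 to 58.8) and 63.9% (62.0 to 65.8). Over all H3K27ac enhancer regions, ACC acetylation overlapped 74.3% in RSC and 75.5% in LEC, and ACC H3K4me2 59.5% and 66.9%. The difference between the groups in ACC acetylation thus had no counterpart in the whole lists, and that in ACC H3K4me2 did.

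Named regions were taken by a rule of width and number, and stand for locations and not for tests. The widest region that was RSC-only in both marks, chr2:168960376-168987450, was 1 H3K27ac region of 27075 bp in RSC. LEC and MEC had no H3K27ac there, and ACC had 2 regions covering 2.65 kb. H3K4me2 was listed in RSC over 3.95 kb and in LEC over 1.55 kb, so the site was RSC-only in H3K4me2 by 1 or more of its RSC regions and not throughout. The next, chr3:85286576-85311950, covered 25.4 kb in RSC, and ACC had 3 regions there (18.9 kb) and MEC 4 (10.2 kb) but LEC none. The third, chr1:56966376-56981950, covered 15.6 kb in RSC with 6.12 kb of H3K4me2, against 3.20 kb of H3K27ac in ACC and 1.07 kb in MEC, and LEC had neither mark.

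For LEC the widest was chr2:157321776-157340750, of 18975 bp. ACC had 2 H3K27ac regions there covering 12.3 kb, MEC had 1 covering 10 kb, and RSC had no H3K27ac. H3K4me2 was listed there in 2 regions of LEC and also in 1 region of RSC. This site was thus LEC-only in H3K4me2 by 1 or more of its LEC regions and not throughout. At chr13:53934351-53952125 LEC acetylation ran over 17.8 kb and ACC over 1.05 kb, with none in RSC or MEC, while LEC H3K4me2 covered 1.32 kb. At chr3:86953051-86970700 ACC was nearly as wide as LEC, with 16.6 against 17.6 kb of H3K27ac and 14.3 against 13.5 kb of H3K4me2. RSC had 2.30 kb of H3K4me2 and no H3K27ac at this site.

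Sites with no region of either mark in ACC or MEC were narrower. In RSC the widest were chr14:64393076-64399825, with 6.75 kb of H3K27ac and 3.48 kb of H3K4me2, and chr5:45582851-45589500, with 6.65 and 0.950 kb. In LEC they were chr7:6810101-6824325, with 14.2 kb of H3K27ac and 2.65 kb of H3K4me2, and chr6:99374451-99383275, with 8.82 and 3.83 kb. RSC, and LEC in turn, had neither mark at the sites of the other.

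Some wide regions acetylated in a single subregion overlapped an H3K4me2 region of the opposite subregion alone, and 3 of the 4 named here also held H3K4me2 of their own subregion. At chr12:33666226-33675400 RSC had 9.18 kb of H3K27ac and no H3K4me2, and LEC had 0.875 kb of H3K4me2 and no H3K27ac. At chr6:143178201-143189200 RSC had 11000 bp of H3K27ac and 1.73 kb of H3K4me2, and LEC had 1 narrow H3K4me2 region and no H3K27ac. Both sites carried H3K27ac in ACC and MEC. For LEC, chr17:9948201-9960200 was acetylated over 12000 bp in LEC, also in ACC but not in RSC, and H3K4me2 covered 5.45 kb in RSC and 4.72 kb in LEC. At chr11:32010826-32021150 LEC had 10.3 kb of H3K27ac, and H3K4me2 covered 3.48 kb in RSC and 1.80 kb in LEC. MEC had 2 H3K27ac regions at each of these LEC sites, covering 5.58 and 3.80 kb, and ACC had 1 at each. In all 4 cases the H3K4me2 of the opposite subregion covered only a part of the acetylated region.

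Regions of a set that lay within 100 kb of each other were chained into clusters. RSC-only H3K27ac regions formed 474 clusters of 5 or more, with 36.1% of the set, and LEC-only regions 413, with 33.6%. In H3K4me2 LEC-only regions were the more clustered, with 582 such clusters and 38.7% of the set against 424 and 28.9% for RSC-only regions. The sets differed in size, with 10137 RSC-only and 9115 LEC-only regions in H3K27ac and 10279 and 11237 in H3K4me2. The part of set size in the clustering was not tested.

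The largest RSC cluster, chr9:29253476-30108950, held 36 RSC-only H3K27ac regions over 855 kb. In this span RSC had 49 H3K27ac enhancer regions covering 132 kb, LEC 14 covering 37.2 kb, ACC 33 covering 89.5 kb and MEC 19 covering 75.1 kb. ACC acetylation overlapped 16 of the 36 and MEC acetylation 11. H3K4me2 also covered more in RSC than in LEC, at 50.5 against 29.6 kb. It covered most in ACC, at 60.1 kb, and 9.45 kb in MEC. Of the 36, 11 were RSC-only in both marks, as were 23.5% of all RSC-only H3K27ac regions. Over all RSC H3K27ac enhancer regions, 18.5% overlapped an RSC-only H3K4me2 region. The next cluster was on the same chromosome, chr9:27217026-28057075, with 29 RSC-only regions. RSC acetylation covered 106 kb there and LEC 4.30 kb in 4 regions, and 21 of the 29 were also in ACC and 8 in MEC. The third, chr15:94599451-95349400, held 26, of which ACC acetylation overlapped 14 and MEC 5. RSC had 88.6 kb of H3K27ac there against 30.1 kb in LEC.

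The largest LEC cluster, chr2:179202851-179593300, held 25 LEC-only H3K27ac regions over 390.4 kb. In this span LEC had 28 H3K27ac enhancer regions covering 95.8 kb and RSC 3 covering 2.50 kb. ACC had 12 covering 51.0 kb and MEC 1 covering 1.45 kb. H3K4me2 was less one-sided between LEC and RSC, at 58.6 and 22.0 kb, and covered 65.2 kb in ACC and 1.25 kb in MEC. Of the 25 regions, 9 overlapped H3K4me2 of RSC. Over all LEC-only H3K27ac regions this share was 34.8%, and over all LEC H3K27ac enhancer regions 54.5%. The next, chr5:111683401-112480550, held 24 LEC-only regions, with 109 kb of H3K27ac in LEC and 46.0 kb in RSC. At chr13:53783826-54066150 were 18 LEC-only regions, with 92.8 kb in LEC and 6.55 kb in RSC. This cluster contains the LEC site of 17.8 kb named above. MEC acetylation overlapped 0, 1 and 0 of the LEC-only regions of these 3 clusters in turn, and ACC acetylation 13, 15 and 7. Over the whole sets MEC acetylation overlapped 18.6% of RSC-only and 7.35% of LEC-only regions, and ACC acetylation 56.3% and 57.5%. Over all enhancer regions of RSC and LEC these shares were 29.4% and 26.4% for MEC, and 74.3% and 75.5% for ACC. The clusters are part of the same sets, so their counts are not independent of the set shares.

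**Figure D5:**
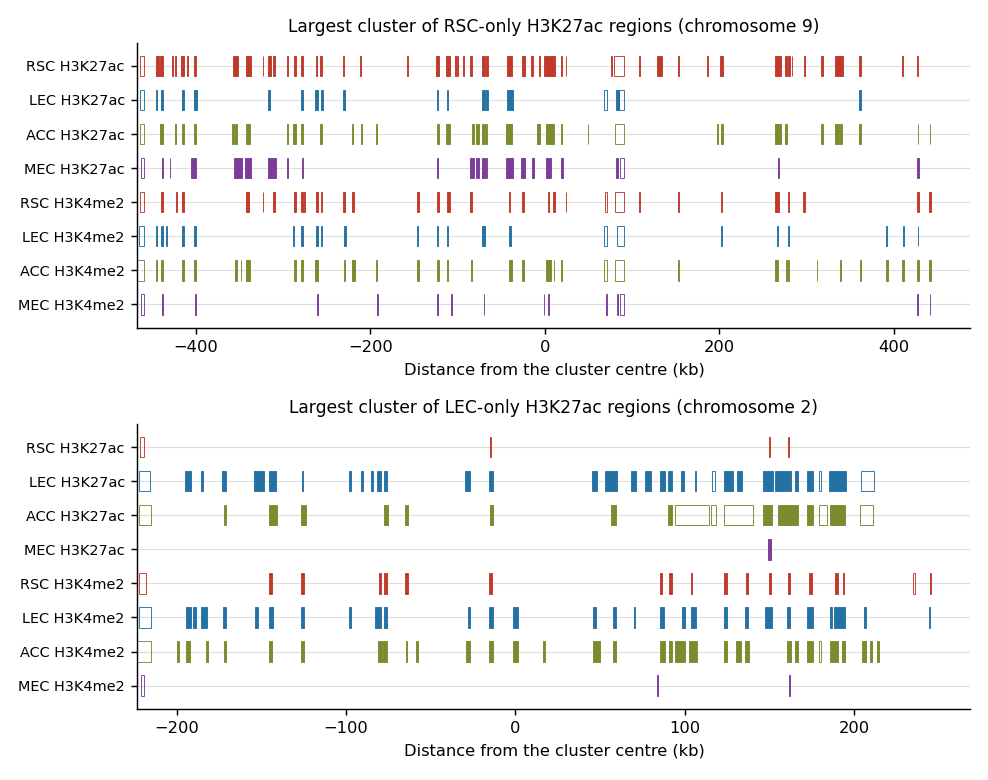
Full-list regions of both marks in the 4 subregions around the largest RSC-only and LEC-only H3K27ac clusters, by distance from the cluster centre (kb), as filled bars for enhancer regions and open bars for excluded ones. RSC has 49, ACC 33, MEC 19 and LEC 14 H3K27ac enhancer regions in the upper span. In the lower one LEC has 28, ACC 12, RSC 3 and MEC 1.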

How the data were processed

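Regions enriched for H3K27ac and H3K4me2 in 4 cortical subregions were analysed from 16 deposited lists. Bowtie 1.1.1, bedtools 2.19.0 and the build mm9 are named in the submitters' processing notes. For peak calling, the definition of an enhancer and the combining of libraries, methods were not given in the sources used here. Each score deposited by the authors was the region's width in bp and gave no enrichment, and the MEC H3K27ac lists had no score. Positions lay on a 25 bp grid and are printed 1-based.

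Overlaps, gaps and clusters were computed with Python 3.11.15 and numpy 2.4.6, and bedtools 2.31.1 gave the same RSC-only and LEC-only counts. On simulated lists, 4766 of 4766 planted regions were sorted correctly. A region counted as overlapped when it shared 1 bp. Overlap between marks and with ACC and MEC used the full lists unless a set is named. Members, rules and alternatives were chosen with earlier results of these data known. The rule for named regions took, outside chromosome 18, per subregion the 3 largest H3K27ac clusters and the widest regions only in that subregion in both marks, with and without ACC and MEC regions, or overlapping the H3K4me2 set of the opposite subregion, and the 2 widest common elements. Input libraries were not used here.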

Additional observations from a re-analysis of the deposited data

How the results depend on the processing

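Values of 10 results were recomputed under 7 alternatives. The 6 counts (the RSC-only and LEC-only sets of each mark, and those in both marks) stayed within 1.5 times of their values under the 6 alternatives run on them. The difference in ACC overlap of H3K27ac sets, -1.21 points, reversed to 1.17 among regions of at least 1000 bp, to 1.31 with lists cut to equal length and to 0.393 with the ACC enhancer list. The difference in MEC overlap of H3K27ac sets, 11.3 points, moved to 8.56 with absence judged from the enhancer lists, to 12.8 among regions of at least 1000 bp and to 12.5 with lists of equal length. In H3K4me2 it moved from 3.67 to 4.70 points among regions of at least 1000 bp. The difference in ACC overlap of H3K4me2 sets, -1.88 points, kept its sign, but its interval held 0 with enhancer lists only (-0.874) and among regions of at least 1000 bp (-0.767). The remaining differences kept their sign and stayed within the interval of the main value. No paired analysis was possible because the lists carry no values per library, and for that reason no library could be left out. Depth limits the comparison: a region missing from a list may have been missed at that depth.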

Other observations

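Some enhancer regions lay in a region that the other subregion had but did not count as an enhancer. There were 1098 such H3K27ac regions in RSC and 890 in LEC, and 831 and 426 in H3K4me2. About 50% of them, from 49.8% of the RSC H3K27ac regions to 55.9% of the LEC H3K4me2 regions, lay within 5 kb of an excluded region of their own subregion, against 9.36% to 12.2% of common regions. ACC held most of them, from 88.6% (86.2 to 90.6) of the RSC H3K4me2 regions to 93.9% (91.2 to 95.8) of the LEC H3K4me2 regions. The ACC share ran from 74.3% to 76.1% over all enhancer regions and from 85.9% to 87.4% over common regions. MEC acetylation overlapped 49.3% (46.1 to 52.6) of the LEC H3K27ac regions that lay in excluded RSC regions, and 29.1% (26.4 to 31.8) of the RSC ones that lay in excluded LEC regions, so the order of the MEC shares was here the reverse of that over the RSC-only and LEC-only sets. Over all enhancer regions the MEC shares were 26.4% in LEC and 29.4% in RSC. The LEC share thus lay above that of its whole list, and the RSC share was near its own.

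The longest chains of H3K4me2 regions, chosen after their values were seen and taken outside chromosome 18, lay elsewhere than the H3K27ac clusters named above. Their positions were not compared with those of the other H3K27ac clusters. At chr1:91067626-91859650 were 30 LEC-only H3K4me2 regions over 792 kb, of which 11 carried H3K27ac of LEC and 3 of RSC, and 22 were also in ACC and 1 in MEC. LEC had 125 kb of H3K4me2 there, ACC 117 kb, RSC 57.3 kb and MEC 7.83 kb. At chr13:42631876-43144825 were 19 RSC-only H3K4me2 regions, of which 15 carried H3K27ac of RSC and 8 of LEC. RSC had 104 kb of H3K4me2 in this span and LEC 78.9 kb, and H3K27ac covered 169 kb in RSC and 104 kb in LEC.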
